A study of Thermothelomyces thermophilus with 18 samples.

Results

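Transcript levels of 6 genes of the endoplasmic reticulum (ER) were followed through all libraries of a transcriptome study of the thermophilic, cellulose-degrading fungus Myceliophthora thermophila. They were taken by locus tag from the ER genes that the study named, and they are 6 of the 9109 genes in the table. Of these, 5 encode folding proteins, namely grp78 (Mycth_2315513), lhs1 (Mycth_2312968), cnx1 (Mycth_2295005), pdi1 (Mycth_2296005) and mpd1 (Mycth_2295433). The study's text calls the other one, Mycth_2314691, a subunit of the sec61 translocon, which is the channel for proteins entering the ER and neither a chaperone nor a folding enzyme, so it is given here by its locus tag. The fungus was ATCC 42464 by the sample labels. Compared were the strains ΔMttrc-1, from which CRISPR-Cas9 editing had removed the gene for the transcription factor MtTRC-1, and the wild type MtWT. Mycelium of both had first been kept in 2% glucose at 45 °C for 16 h and was washed before it was given a new carbon source. ΔMttrc-1 and MtWT were each harvested after 4 h on 2% Avicel, a microcrystalline cellulose, after 6 h on 2% Avicel, and after 4 h on 2% starch. There were 3 libraries in each of these 6 groups, from cultures that the methods of the study give as independent biological replicates.

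Secreted proteins enter the ER unfolded. Grp78 (BiP) is the Hsp70 chaperone of the ER lumen, which holds unfolded chains and helps to draw them through the translocon, and Lhs1 is an Hsp70-related protein that in Saccharomyces cerevisiae acts as a nucleotide exchange factor for that chaperone. Calnexin, encoded by cnx1, is a membrane lectin that retains N-glycosylated proteins until they are folded. Protein disulfide isomerases, here pdi1 and the related mpd1, form and rearrange disulfide bonds. In fungi, many genes of this kind respond to the unfolded protein response (UPR), whose transcription factor is Hac1, and cellulolytic fungi secrete large amounts of enzyme when they grow on cellulose.

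Libraries held 17250057 to 24387079 counts, and all 6 genes passed the filter on low counts, with at least 1596 counts in every library. Libraries were assigned to strains by the sample labels, and the strain names are those of the study. The assignment was not checked by the deleted gene, which is not analysed here. Levels are TMM-scaled CPM (counts set to a common library size after TMM scaling, which levels the bulk of genes between libraries) and comparisons are edgeR contrasts. A gene was called changed, and is said to have risen or fallen, when its Benjamini-Hochberg adjusted p over 8573 genes was under 0.05 and its fold change was over 2. The TMM factors differed by condition. They were 0.797 to 0.822 in ΔMttrc-1 and 0.777 to 0.809 in MtWT at 4 h on Avicel, 1.22 to 1.23 in ΔMttrc-1 and 0.947 to 0.960 in MtWT at 6 h on Avicel, and 1.15 in ΔMttrc-1 and 1.15 to 1.16 in MtWT on starch. The 10 most abundant genes took the largest share of counts at 4 h on Avicel, with 9.87% to 10.2% in ΔMttrc-1 and 9.14% to 9.70% in MtWT.

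At both Avicel times ΔMttrc-1 had less transcript of all 6 genes than MtWT, and on starch it had slightly more of 5 of them. None of them was called higher on Avicel than on starch in ΔMttrc-1, beside 8.55% of all tested genes at 4 h and 6.19% at 6 h. In MtWT 4 of them were at 4 h, beside 9.95% of all tested genes, and all 6 at 6 h, beside 13.0%. With counts divided by library totals in place of TMM, these MtWT counts were 2 and 3. The starch libraries were all from 4 h, so the comparison at 6 h also carries a difference in time. The joint share of the 6 genes in all counts was 0.216% ± 0.0045 in ΔMttrc-1 and 0.568% ± 0.018 in MtWT at 4 h on Avicel. At 6 h it was 0.387% ± 0.00093 in ΔMttrc-1 and 0.720% ± 0.022 in MtWT (SD, n = 3). On starch the share was 0.378% ± 0.0035 in ΔMttrc-1 and 0.283% ± 0.0067 in MtWT (SD, n = 3). These are bulk libraries, in which fewer cells expressing a gene and less RNA per cell cannot be told apart.

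**Figure D1:**
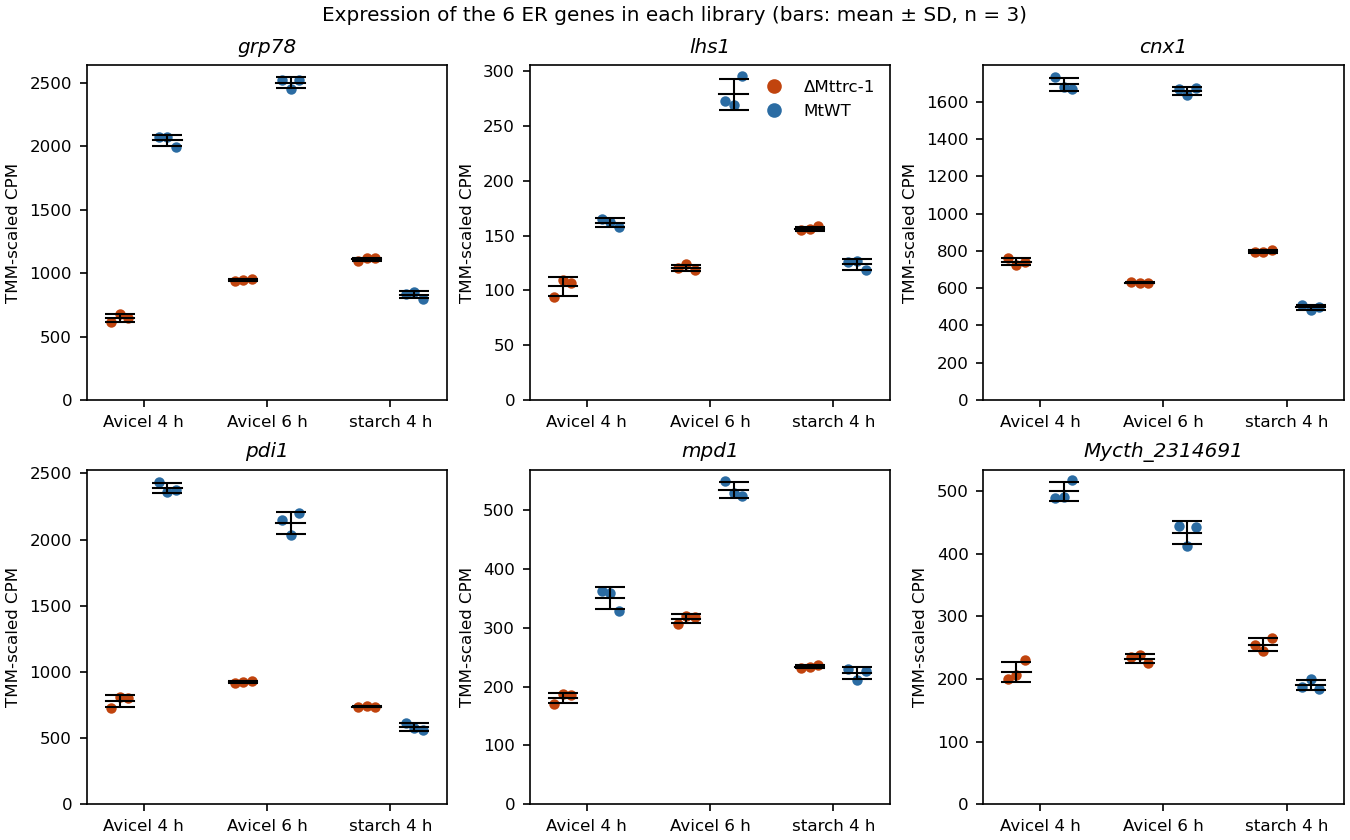
Levels of the 6 ER genes in each library (y axis, TMM-scaled CPM from 0) at 4 h and 6 h on Avicel and 4 h on starch, with ΔMttrc-1 in orange to the left of MtWT in blue. Bars are the mean ± SD of 3 libraries, and on Avicel the MtWT points lie above the ΔMttrc-1 points in every panel.

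The deletion was first compared on Avicel, where the study looked into the part of MtTRC-1 in the production of cellulases. The study named these genes because they were lower in the deletion strain in these libraries, so their direction here is not independent evidence. At 4 h, 4 of the 6 fell, beside 7.42% of all tested genes called lower. At 6 h, 4 of the 6 fell, beside 12.9% of all tested genes. The median log2 fold change of the 6 genes was -1.21 at 4 h, against -0.02 for all tested genes, and -1.21 at 6 h, against 0.01 for all tested genes. In each gene and at each time, all 3 ΔMttrc-1 libraries lay below all 3 MtWT libraries, which was the case for 32.4% of the tested genes at 4 h and 39.3% at 6 h. With counts divided by library totals in place of TMM, 2 of the 6 were called lower at 6 h, beside 704 of the 8573 tested genes. The median gene then moved by 0.36 on the log2 scale.

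Among the Hsp70-type genes, grp78 had 612, 679 and 643 CPM in ΔMttrc-1, against 2074, 2073 and 1999 CPM in MtWT, at 4 h on Avicel. At 6 h it had 937, 949 and 956 CPM in ΔMttrc-1, against 2526, 2456 and 2528 CPM in MtWT. On Avicel, no ΔMttrc-1 library reached more than 956 CPM, and no MtWT library was below 1999 CPM. The log2 fold change of grp78 was -1.67 ± 0.044 (SE, edgeR adjusted p = 3.03e-21) at 4 h and -1.40 ± 0.043 (adjusted p = 8.34e-20) at 6 h. The lhs1 gene, which encodes the Hsp70-related partner, had 94.2, 109.9 and 107 CPM in ΔMttrc-1, against 166, 162 and 158 CPM in MtWT, at 4 h. At 6 h it had 120.5, 124 and 118 CPM in ΔMttrc-1, against 273, 269.5 and 296 CPM in MtWT. The groups did not overlap at either time, and the gap was wider at 6 h. For lhs1 the log2 fold change was -0.64 ± 0.055 (adjusted p = 1.31e-10), under the fold threshold, at 4 h and -1.21 ± 0.053 (adjusted p = 1.65e-16) at 6 h.

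The calnexin gene cnx1 had 759.8, 724 and 742 CPM in ΔMttrc-1, against 1733, 1681 and 1666 CPM in MtWT, at 4 h on Avicel. At 6 h it had 635, 626 and 629 CPM in ΔMttrc-1, against 1668, 1634 and 1673 CPM in MtWT. Thus, among the Avicel groups and under TMM, cnx1 was lowest in ΔMttrc-1 at the later time, while MtWT held a similar level at both. On library totals the change from 4 h to 6 h was 0.36 in ΔMttrc-1, with the median of all tested genes at 0.64, and 0.23 in MtWT, with that median at 0.28. Its log2 fold change was -1.19 ± 0.039 (adjusted p = 4.25e-19) at 4 h and -1.40 ± 0.039 (adjusted p = 1.27e-20) at 6 h.

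Of the disulfide isomerase genes, pdi1 had 730.3, 806 and 803 CPM in ΔMttrc-1, against 2435, 2358 and 2377 CPM in MtWT, at 4 h on Avicel. At 6 h it had 912, 919.8 and 928 CPM in ΔMttrc-1, against 2149, 2032 and 2198 CPM in MtWT. The difference was smaller at 6 h, since under TMM the ΔMttrc-1 libraries were higher and the MtWT libraries lower than at 4 h. On library totals the change in MtWT was 0.10, with the median of all tested genes at 0.28. The log2 fold change of pdi1 was -1.62 ± 0.047 (adjusted p = 3.45e-20) at 4 h and -1.21 ± 0.047 (adjusted p = 1.03e-17) at 6 h. The mpd1 gene had 171, 187 and 185 CPM in ΔMttrc-1, against 363, 360.0 and 329 CPM in MtWT, at 4 h, and at 6 h 307, 321 and 319 CPM in ΔMttrc-1, against 551, 529.8 and 525 CPM in MtWT. It was lower in ΔMttrc-1 without overlap at both times but did not reach the fold threshold, with -0.96 ± 0.049 (adjusted p = 4.97e-15) at 4 h and -0.76 ± 0.048 (adjusted p = 1.92e-13) at 6 h.

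The translocon gene Mycth_2314691 had 199.7, 206 and 230.0 CPM in ΔMttrc-1, against 489.7, 491 and 518 CPM in MtWT, at 4 h on Avicel. At 6 h it had 235, 238 and 225 CPM in ΔMttrc-1, against 445, 413 and 444 CPM in MtWT. The MtWT libraries stood above all ΔMttrc-1 libraries at both times. The log2 fold change was -1.24 ± 0.053 (adjusted p = 1.24e-16) at 4 h and -0.90 ± 0.052 (adjusted p = 4.34e-14), under the fold threshold, at 6 h.

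**Figure D2:**
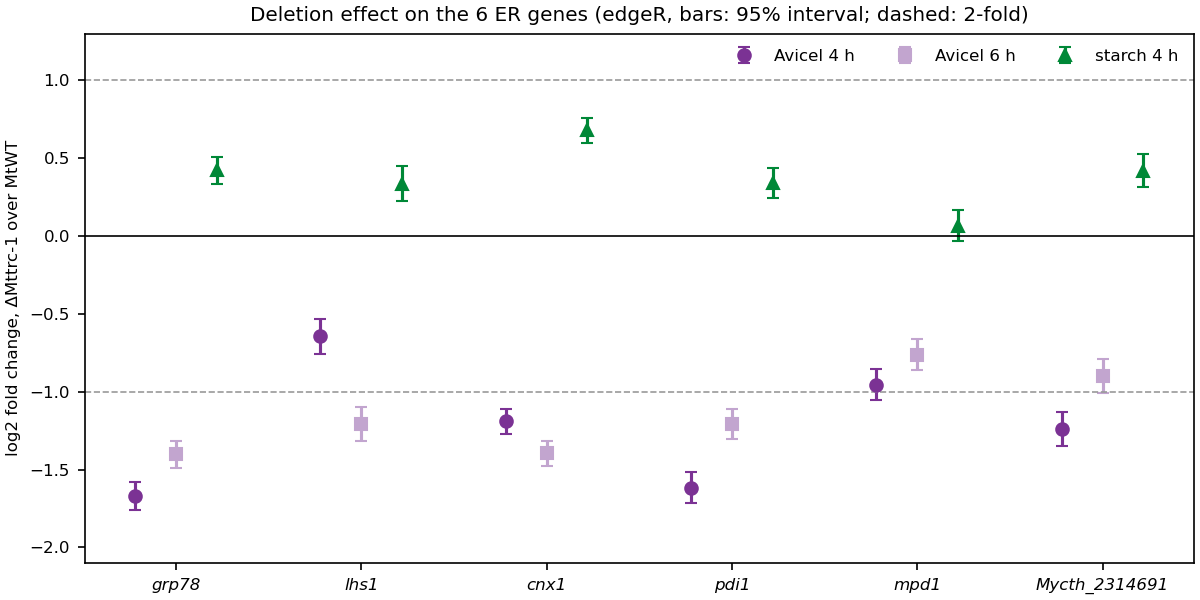
Log2 fold change of ΔMttrc-1 over MtWT (y axis) for each of the 6 ER genes on Avicel at 4 h (circles), Avicel at 6 h (squares) and starch at 4 h (triangles), with 95% intervals from edgeR and dashed lines at a 2-fold change. All Avicel estimates lie below 0, between -1.67 and -0.64, and all starch estimates above 0, between 0.07 and 0.68, where the interval of mpd1 includes 0.

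On starch the order of the strains was the other way round, though no gene reached the fold threshold. edgeR and DESeq2 called 0 of the 6, beside 4.12% of all tested genes called higher by edgeR. At an unadjusted p under 0.05, 5 of the 6 were higher in ΔMttrc-1, and the same 5 had an adjusted p under 0.05, as did 27.7% of all tested genes in that direction. The grp78 gene had 1097, 1116 and 1119 CPM in ΔMttrc-1, against 836, 853 and 798 CPM in MtWT, a log2 fold change of 0.42 ± 0.042 (adjusted p = 4.61e-09). For lhs1 there were 155, 156 and 159 CPM in ΔMttrc-1, against 126, 127 and 118 CPM in MtWT (0.34 ± 0.053, adjusted p = 6.59e-06). Both Hsp70-type genes were thus higher in every ΔMttrc-1 library.

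The widest gap on starch was that of cnx1, with 792, 792 and 806 CPM in ΔMttrc-1, against 509, 485 and 497 CPM in MtWT (log2 fold change 0.68 ± 0.039, adjusted p = 8.90e-14). The pdi1 gene had 736, 739 and 736 CPM in ΔMttrc-1, against 615, 576 and 557 CPM in MtWT (0.34 ± 0.046, adjusted p = 7.69e-07). Calnexin and the main disulfide isomerase therefore showed the same order as the chaperone genes. Mycth_2314691 had 254, 245 and 266 CPM in ΔMttrc-1, against 188, 199.9 and 184 CPM in MtWT (0.42 ± 0.052, adjusted p = 1.81e-07). The exception was mpd1, with 231, 234 and 236 CPM in ΔMttrc-1, against 230.4, 211 and 227 CPM in MtWT. Its groups lay next to each other without overlap, and its difference of 0.07 had a 95% interval of -0.03 to 0.17, which includes 0 (adjusted p = 0.237).

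The difference between the deletion effects at 4 h on Avicel and at 4 h on starch was tested over the 4 groups in one contrast. It uses the Avicel libraries on which the genes were named, so it is not independent of that choice. It was called negative for 5 of the 6 genes, beside 10.2% of all tested genes, with a median of -1.76 against 0.00 for all tested genes. It was -2.09 ± 0.061 for grp78, -1.95 ± 0.066 for pdi1, -1.87 ± 0.055 for cnx1, -1.66 ± 0.074 for Mycth_2314691 and -1.02 ± 0.068 for mpd1 on the log2 scale, with edgeR adjusted p from 4.70e-20 for grp78 to 1.48e-12 for mpd1. For lhs1 it was -0.98 ± 0.076 (adjusted p = 2.92e-11). The values of mpd1 and lhs1 lay at the fold threshold. Against a 2-fold change itself, the adjusted p of mpd1 was 0.881. The call of mpd1 was lost without ΔMttrc-1 replicate 1 or MtWT replicate 1 on Avicel at 4 h (-0.982 and -0.997) or without MtWT replicate 2 on starch (-0.986), and lhs1 was called without ΔMttrc-1 replicate 2 or 3 (-1.026 and -1.004) or MtWT replicate 3 (-1.0007) on Avicel at 4 h. The call of mpd1 was also lost on library totals (-0.987) and in a fit of these 4 groups alone (-0.998).

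The carbon source was next compared within each strain at 4 h. All comparisons within a strain use the Avicel libraries on which the genes were named. They are not independent of that choice. In ΔMttrc-1 the Avicel over starch comparison gave 0 calls of 6 by edgeR and by DESeq2, beside 8.55% of all tested genes called higher and 8.42% called lower. By unadjusted p under 0.05, 5 of the 6 were lower on Avicel, and these 5 also had an adjusted p under 0.05, as did 36.9% of all tested genes. The grp78 gene stood at 645 ± 33.3 CPM on Avicel and 1111 ± 12.1 CPM on starch in ΔMttrc-1 (SD, n = 3), and its log2 fold change was -0.79 ± 0.043 (adjusted p = 1.25e-14). For lhs1 it was -0.60 ± 0.054 (adjusted p = 4.22e-10). Both Hsp70-type genes were thus lower on cellulose than on starch in this strain. Smaller differences were seen for mpd1 (-0.37), Mycth_2314691 (-0.27) and cnx1 (-0.10, adjusted p = 0.0216). For pdi1 the Avicel and starch libraries overlapped, with 0.08 and a 95% interval of -0.01 to 0.18 (adjusted p = 0.119). Without TMM, on library totals, pdi1 was at -0.42 and the median of all tested genes at -0.56. There 2 of the 6, grp78 (-1.29) and lhs1 (-1.10), were called lower, beside 1942 of the 8573 tested genes.

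In the same comparison in MtWT, 4 of the 6 genes rose on Avicel over starch, beside 9.95% of all tested genes, and the other 2 were higher by less than 2-fold. The median log2 fold change of the 6 was 1.35, against -0.06 for all tested genes. The pdi1 gene rose most, to 2390.0 ± 40.4 CPM on Avicel, against 583 ± 29.6 CPM on starch (SD, n = 3), a log2 fold change of 2.04 ± 0.048 (adjusted p = 1.65e-22). It was followed by cnx1 at 1.77 ± 0.040 (adjusted p = 5.68e-23), Mycth_2314691 at 1.39 ± 0.053 (adjusted p = 5.50e-18) and grp78 at 1.31 ± 0.043 (adjusted p = 2.51e-19). The 2 genes under the threshold were mpd1 at 0.65 ± 0.048 (adjusted p = 4.89e-12) and lhs1 at 0.39 ± 0.054 (adjusted p = 4.93e-07). With library totals, 2 of the 6 were called higher, beside 432 of the 8573 tested genes. There lhs1 had -0.16, where the median of all tested genes was at -0.60. The carbon responses of ΔMttrc-1 and MtWT differ by exactly the contrast of deletion effects given above.

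The 6 h Avicel libraries could be set only against starch at 4 h, so that comparison also carries a difference in time, and it shares its starch libraries with the one at 4 h. In ΔMttrc-1, 0 of the 6 were called by edgeR and DESeq2, beside 6.19% of all tested genes called higher and 6.88% called lower, and all 6 had an unadjusted p under 0.05, as had 66.8% of all tested genes. Here the genes parted, with mpd1 at 0.43 ± 0.048 (adjusted p = 1.63e-08) and pdi1 at 0.32 ± 0.046 (adjusted p = 1.39e-06) higher on Avicel. The other 4 were lower, namely lhs1 (-0.37), cnx1 (-0.34), grp78 (-0.23) and Mycth_2314691 (-0.13, adjusted p = 0.0292). The disulfide isomerase genes were therefore the only members above their starch level at 6 h in ΔMttrc-1. In MtWT all 6 genes were called higher at 6 h on Avicel, beside 13.0% of all tested genes, with log2 fold changes of 1.87 for pdi1, 1.74 for cnx1, 1.59 for grp78, 1.26 for mpd1, 1.19 for Mycth_2314691 and 1.17 for lhs1. On library totals 3 of the 6 were called higher, beside 768 of the 8573 tested genes.

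**Figure D3:**
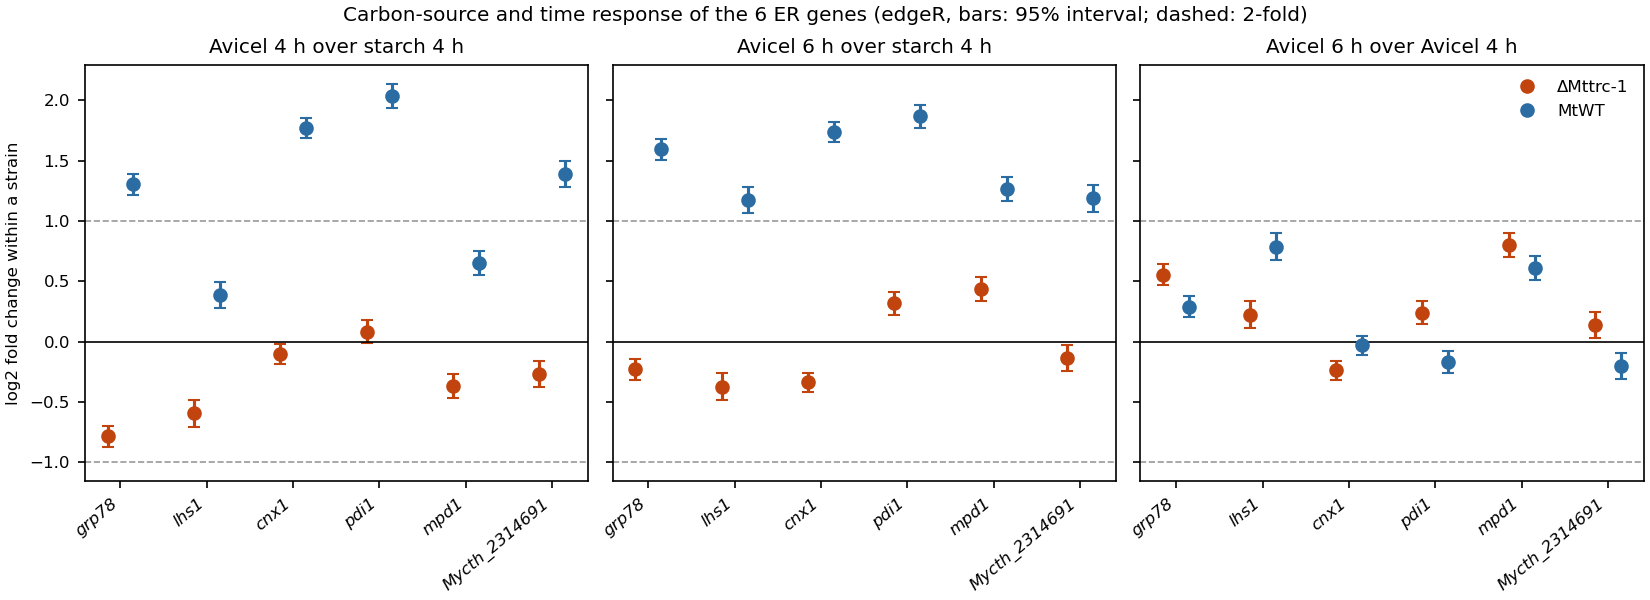
Log2 fold change within a strain (y axis) of each ER gene for Avicel at 4 h over starch at 4 h (left), Avicel at 6 h over starch at 4 h (middle) and Avicel at 6 h over Avicel at 4 h (right), with ΔMttrc-1 in orange left of MtWT in blue, 95% intervals from edgeR and dashed lines at a 2-fold change. In the left and middle panels all MtWT estimates lie above 0, up to 2.04, and the ΔMttrc-1 estimates between -0.79 and 0.43.

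Between 4 h and 6 h on Avicel no member was called in either strain, and the members differed among themselves. In ΔMttrc-1, edgeR and DESeq2 called 0 of the 6, beside 9.44% of all tested genes called higher and 9.55% called lower, although all 6 had an unadjusted p under 0.05, as had 74.8% of all tested genes. The mpd1 gene was at 316 ± 7.54 CPM at 6 h and 181 ± 8.85 CPM at 4 h (SD, n = 3), a log2 fold change of 0.80 ± 0.049 (adjusted p = 9.54e-14), and grp78 was at 0.56 ± 0.043 (adjusted p = 1.17e-11). Smaller values were found for pdi1 (0.24), lhs1 (0.22) and Mycth_2314691 (0.14, with overlapping libraries). The calnexin gene cnx1 was lower, at -0.24 ± 0.039 (adjusted p = 6.06e-06), though on library totals it had 0.36, with the median of all tested genes at 0.64. On those totals 2 of the 6, mpd1 (1.40) and grp78 (1.15), were called higher, beside 2468 of the 8573 tested genes.

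In MtWT edgeR and DESeq2 likewise called 0 of the 6, beside 8.40% of all tested genes called higher and 5.67% called lower, and 5 of the 6 had an unadjusted p under 0.05, as had 72.6% of all tested genes. Those higher at 6 h were lhs1, with 279 ± 14.1 CPM at 6 h and 162 ± 3.96 CPM at 4 h (SD, n = 3), a log2 fold change of 0.79 ± 0.053 (adjusted p = 1.68e-12), mpd1 at 0.61 ± 0.048 (adjusted p = 2.75e-11) and grp78 at 0.29 ± 0.042 (adjusted p = 1.38e-06). The genes cnx1 (-0.03, 95% interval -0.11 to 0.05), pdi1 (-0.17, adjusted p = 0.00217) and Mycth_2314691 (-0.20, adjusted p = 0.00115) were not higher under TMM, but on library totals their signs turned, to 0.23, 0.10 and 0.063, with the median of all tested genes at 0.28. On those totals 1 of the 6, lhs1 at 1.05, was called higher, beside 1232 of the 8573 tested genes. Relative to the median gene, these 3 stayed at or below it and lhs1, mpd1 and grp78 above it under both scalings.

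How the deletion effect changed between the Avicel times was tested in a further contrast. edgeR and DESeq2 called 0 of the 6 genes, beside 10.6% of all tested genes called higher and 11.9% called lower, and all 6 had an unadjusted p under 0.05, as had 68.2% of all tested genes. The deletion effect was more negative at 6 h for lhs1 (-0.56 ± 0.076, adjusted p = 4.39e-07) and cnx1 (-0.21 ± 0.054, adjusted p = 0.00183). It was less negative at 6 h for pdi1 (0.41 ± 0.065, adjusted p = 5.76e-06), Mycth_2314691 (0.34 ± 0.074), grp78 (0.27 ± 0.060) and mpd1 (0.19 ± 0.068, adjusted p = 0.0146). On library totals the value of cnx1 was 0.12, with the median of all tested genes at 0.34.

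The order of the 6 groups differed between genes. The highest group was MtWT at 6 h on Avicel for grp78, lhs1 and mpd1, and MtWT at 4 h on Avicel for pdi1, Mycth_2314691 and cnx1, although for cnx1 the libraries of these 2 groups overlapped. The lowest group was ΔMttrc-1 at 4 h on Avicel for grp78, lhs1 and mpd1, and MtWT on starch for cnx1, pdi1 and Mycth_2314691. From lowest to highest group the means spanned 4.10-fold for pdi1, 3.88-fold for grp78, 3.41-fold for cnx1, 2.96-fold for mpd1, 2.70-fold for lhs1 and 2.62-fold for Mycth_2314691. Neighbouring groups that overlapped were, for lhs1, MtWT at 4 h on Avicel with ΔMttrc-1 on starch, and MtWT on starch with ΔMttrc-1 at 6 h on Avicel. They were, for pdi1, ΔMttrc-1 at 4 h on Avicel with ΔMttrc-1 on starch. For Mycth_2314691, ΔMttrc-1 at 4 h on Avicel overlapped both ΔMttrc-1 at 6 h on Avicel and MtWT on starch.

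Levels of different genes were compared per gene length, as the deposited RPKM (counts relative to gene length and to the library's counted reads, without TMM). At 4 h on Avicel pdi1 was the most abundant of the 6, with 331 ± 14.5 RPKM in ΔMttrc-1 and 995 ± 25.6 RPKM in MtWT (SD, n = 3), ranks 392 and 153 of the 9109 genes. The least abundant was lhs1, with 22.8 ± 1.61 RPKM in ΔMttrc-1 and 35.0 ± 1.44 RPKM in MtWT. On starch grp78 led, with 475 ± 5.64 RPKM in ΔMttrc-1 and 357 ± 12.5 RPKM in MtWT, but in MtWT pdi1 was within the spread, at 353 ± 16.9 RPKM.

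A ratio of 2 genes within a library does not depend on how libraries are scaled. The ratio of pdi1 to grp78, an isomerase to the Hsp70 chaperone, was 1.70 ± 0.048 in ΔMttrc-1 and 1.64 ± 0.037 in MtWT at 4 h on Avicel, 1.37 ± 0.0029 in ΔMttrc-1 and 1.20 ± 0.030 in MtWT at 6 h, and 0.934 ± 0.0097 in ΔMttrc-1 and 0.989 ± 0.042 in MtWT on starch (SD, n = 3). It therefore followed the condition in both strains, with no overlap between conditions. The ratio of grp78 to lhs1 was 8.52 ± 0.34 in ΔMttrc-1 and 17.3 ± 0.19 in MtWT at 4 h on Avicel, 10.7 ± 0.29 in ΔMttrc-1 and 12.3 ± 0.51 in MtWT at 6 h, and 9.70 ± 0.074 in ΔMttrc-1 and 9.15 ± 0.088 in MtWT on starch. The MtWT libraries at 4 h on Avicel stood apart from all others in this ratio. They also had the highest ratio of pdi1 to mpd1, 6.63 ± 0.34, against 4.18 ± 0.031 in ΔMttrc-1 at the same time and 2.54 to 3.86 in the means of the other 4 groups. The ratio of grp78 to cnx1 was lowest in ΔMttrc-1 at 4 h on Avicel, at 0.767 ± 0.058, against 1.07 ± 0.018 in MtWT. Differences between these ratios were not tested.

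**Figure D4:**
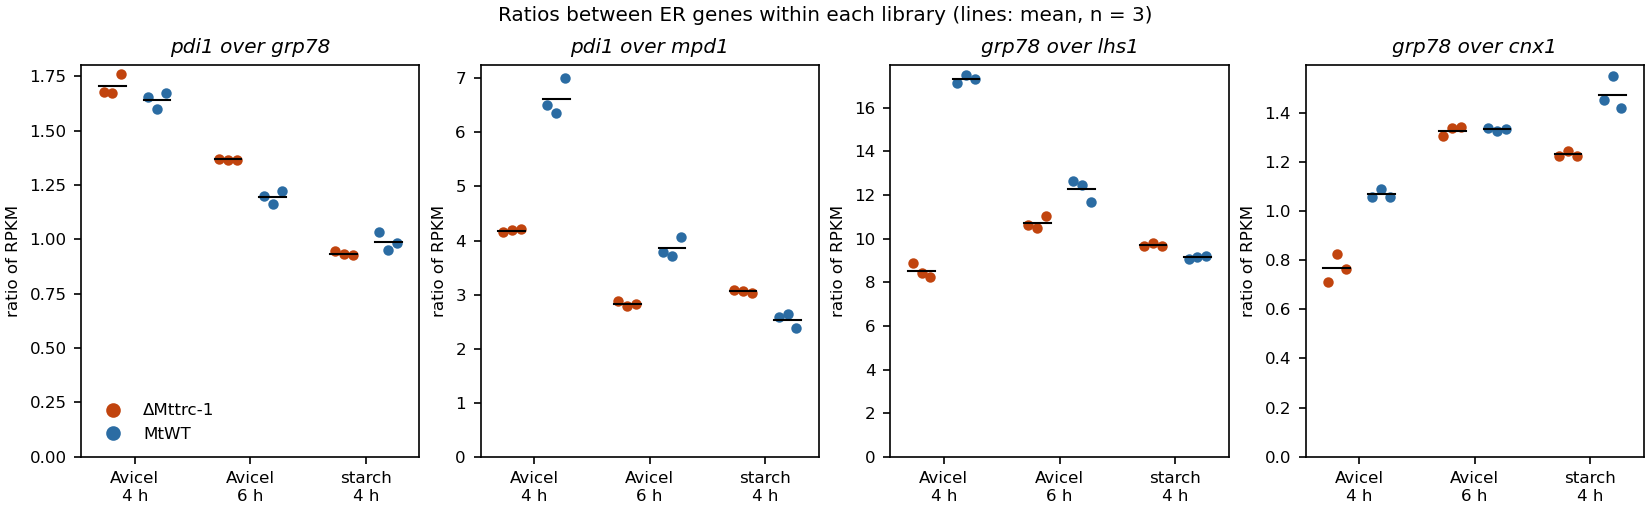
Ratios of RPKM between pairs of ER genes in each library (y axis from 0) at 4 h and 6 h on Avicel and 4 h on starch, with ΔMttrc-1 in orange left of MtWT in blue and lines at the mean of 3 libraries. The ratio of grp78 to lhs1 stands at 17.3 in MtWT at 4 h on Avicel, and the group means of the other groups lie between 8.52 and 12.3.

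Across the 18 libraries the log2 CPM of the members had pairwise Pearson correlations of 0.71 (lhs1 with pdi1) to 0.97 (pdi1 with Mycth_2314691), given as a description, since the libraries come in 6 groups of 3. The 5 other genes whose log2 CPM lay closest to the mean standardized profile of the 6 were Mycth_2301053 (r = 0.98), Mycth_2304302 (r = 0.98), Mycth_2088816 (r = 0.98), Mycth_87600 (r = 0.98) and sec62 (Mycth_2310016, r = 0.97). Of these, Mycth_2088816 is described as a member of glycosyltransferase family 66, that of the catalytic subunit of the oligosaccharyltransferase that attaches N-glycans, and sec62 encodes a translocation protein of the ER membrane. The first 2 were at 148 ± 7.58 CPM in ΔMttrc-1 and 334 ± 28.8 CPM in MtWT for Mycth_2301053, and at 56.2 ± 2.33 CPM in ΔMttrc-1 and 207 ± 12.4 CPM in MtWT for Mycth_2304302, at 4 h on Avicel (SD, n = 3). Mthac-1 (Mycth_2310995), which encodes the UPR transcription factor, had r = 0.82, actin 0.34 and the elongation factor gene tef-1 -0.07.

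The members were set beside other genes of the secretory pathway. The list of Mthac-1 and 3 translocation genes (sec62, sec63 and the sec61 subunit gene Mycth_2073127) was also named by the study on these libraries. At 4 h on Avicel 3 of these 4 fell in ΔMttrc-1, beside 7.42% of all tested genes, with a median of -1.31. At 6 h 2 of the 4 fell, beside 12.9% of all tested genes, with a median of -0.86. On library totals 0 of the 4 were called there, beside 704 of the 8573 tested genes called lower, with a median of -0.51. The difference of deletion effects between Avicel and starch was called negative for 4 of 4, beside 10.2% of all tested genes, with a median of -1.62. Unlike the members under TMM, Mthac-1 passed both thresholds between the Avicel times. On library totals mpd1 (1.40) and grp78 (1.15) were also called higher at 6 h in ΔMttrc-1, beside 2468 of the 8573 tested genes. In MtWT lhs1 (1.05) was, beside 1232. Under TMM Mthac-1 rose in ΔMttrc-1, to 534 ± 3.96 CPM at 6 h, against 250.4 ± 11.5 CPM at 4 h (SD, n = 3), a log2 fold change of 1.09 (adjusted p = 1.9e-17), and its deletion effect became less negative by 1.05 (adjusted p = 9.8e-14). The members' own values in that contrast ran from -0.56 to 0.41, and the difference between Mthac-1 and the members was not tested. The mRNA level of Hac1 relatives does not show their activity, which in fungi is also set by splicing, and splicing is not measured by these gene counts.

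Other chaperones, taken as 12 genes described as heat shock proteins or DnaJ (Hsp40) proteins with no statement of compartment, had medians near those of all tested genes in the deletion effect at 4 h on Avicel and in its difference from starch. The list was drawn only from the descriptions at hand, so it is partial, and chaperone genes outside it were not looked at. The members, in contrast, were named by the study for lower levels in ΔMttrc-1 in these libraries. A gap between the medians of these lists in part reflects that choice. At 4 h on Avicel 1 of the 12 fell in ΔMttrc-1, by edgeR and by DESeq2, beside 7.42% of all tested genes, with a median of -0.14, against -0.02 for all tested genes, and the difference of deletion effects between Avicel and starch was called negative for 1, beside 10.2% of all tested genes, with a median of 0.08, against 0.00 for all tested genes. The 1 gene was in both cases the DnaJ gene Mycth_2114944 (-1.17 and -2.35), at 8.10 ± 1.28 CPM in ΔMttrc-1 and 18.2 ± 1.67 CPM in MtWT at 4 h on Avicel. The highest of the 12 at 4 h on Avicel was the Hsp70 gene Mycth_2086391, at 0.47. At 6 h on Avicel the list lay lower, with a median of -0.51, against 0.01 for all tested genes. In ΔMttrc-1 3 of the 12 fell, beside 12.9% of all tested genes, and the lowest values were those of the DnaJ gene Mycth_112086 (-2.54) and the Hsp20 gene Mycth_110532 (-1.89). On library totals 2 of the 12 were called lower at 6 h, beside 704 of the 8573 tested genes. Their median was then -0.15, against 0.36 for all tested genes.

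Of 7 other secretory genes (vesicle transport, signal recognition and glycosylation), also a partial list from the descriptions at hand, 1 fell at 4 h on Avicel, beside 7.42% of all tested genes, with a median of -0.50. At 6 h 1 fell and 1 rose, beside 1110 called lower and 733 called higher of the 8573 tested genes, with a median of -0.60. The difference of deletion effects was called negative for 2, beside 10.2% of all tested genes, with a median of -0.59. On library totals it was called negative for 0 and positive for 1, beside 826 called lower and 840 called higher of the 8573 tested genes. The 2 called negative under TMM were the glycosyltransferase genes Mycth_2069347 (family 59) and Mycth_2088816 (family 66), at -1.01 and -1.02. Of 2 genes described as thioredoxin-like, a fold that disulfide isomerases share, 0 were called at 4 h on Avicel by edgeR or DESeq2, beside 7.42% of all tested genes called lower. At an unadjusted p under 0.05, for which no share of all tested genes was taken there, 2 were lower. The control genes actin and tef-1 were also lower by that rule, so it does not set the thioredoxin-like genes apart. The values were -0.89 for Mycth_2089248 (edgeR adjusted p = 3.3e-12) and -0.72 for Mycth_2075498 (adjusted p = 4.3e-13). At 6 h 1 of the 2 fell, beside 12.9% of all tested genes, namely Mycth_2089248 at -1.06, which was not called on library totals. The difference of deletion effects between Avicel and starch was called negative for the same gene, at -1.10, beside 10.2% of all tested genes, and was -0.96 for Mycth_2075498 (adjusted p = 1.3e-12). The control genes actin and tef-1 were called in 0 of their 22 values over the 11 comparisons by edgeR and DESeq2. Of the 22, 17 had an unadjusted p under 0.05, as had 66.8% to 74.8% of all tested genes where that share is given above. Their deletion effects at 4 h on Avicel were -0.24 and -0.12. For Avicel over starch at 4 h they had 0.51 and 0.56 in MtWT and 0.55 and 0.67 in ΔMttrc-1. For 6 h over 4 h they had -0.46 and -0.88 in MtWT and -0.38 and -0.62 in ΔMttrc-1. They were thus not flat between conditions.

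**Figure D5:**
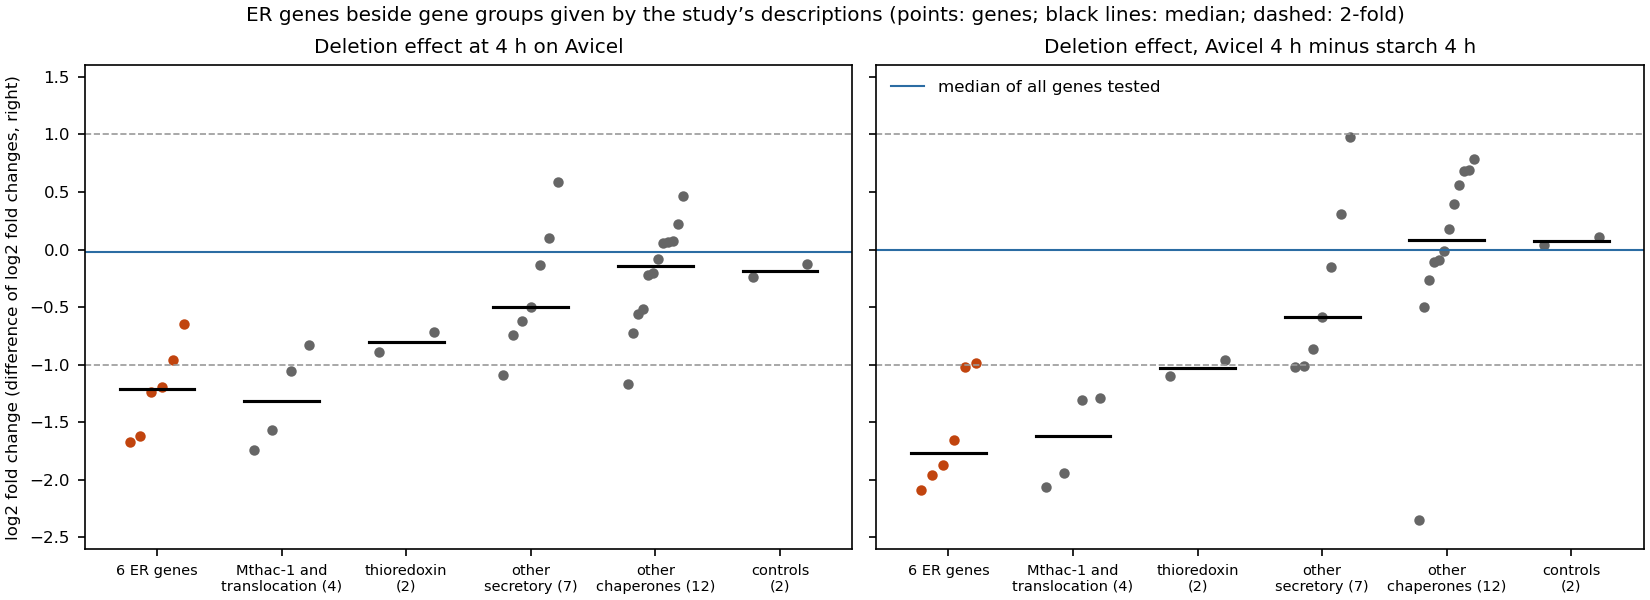
Log2 fold change of ΔMttrc-1 over MtWT at 4 h on Avicel (left) and its difference from the one on starch (right) for the 6 ER genes (orange) and for 5 other groups of genes (grey), with black lines at group medians, a blue line at the median of all tested genes and dashed lines at 2-fold. The ER genes have medians of -1.21 and -1.76, and the 12 other chaperones medians of -0.14 and 0.08. The lists of other chaperones and other secretory genes are partial and were taken by description. The ER genes, Mthac-1 and the translocation genes were named by the study for lower levels in ΔMttrc-1 in these Avicel libraries.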

How the data were processed

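RNA-seq was made from mycelium of 6 groups of 3 libraries. The authors aligned reads with TopHat2 2.0.8b and deposited read counts per gene from HTSeq 0.5.4p2, versions as in the submitters' processing notes; the study's methods give other versions. They also deposited RPKM values, the counts divided by gene length and library reads. The study's methods name predicted transcripts of the M. thermophila ATCC 42464 genome as the mapping target. They state neither an assembly version nor the strand setting, so overlapping and antisense genes cannot be told apart. Sample titles gave the group and the replicate, since the descriptions of MtWT replicate 3 repeat the name of replicate 2.

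Counts were fitted with edgeR 4.0.16 under R 4.3.3 (TMM, filterByExpr by group, robust quasi-likelihood fit over 18 libraries, no replicate term). The filter kept 8573 of 9109 genes, and the 536 left out held 0.00403% of counts. Standard errors are the log2 fold change over the square root of F and are approximate. Alternatives used DESeq2 1.42.0, limma 3.58.1 on log2(RPKM + 1) and log2(RPKM + 0.1), other scalings, filters and sample sets, and each library left out. Names were matched to RefSeq ASM22609v1 for 9086 genes. The members, lists and tests were chosen with earlier results of these data known. The text names all 6 members, up to 2 lowest and 2 highest genes of each other list, and the 5 closest profiles. Intervals are for the mean log2 fold change, not for single libraries, and rest only on the spread between these libraries.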

Additional observations from a re-analysis of the deposited data

Results flagged for a closer look

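The effect of deleting MtTRC-1 was called different between Avicel and starch at 4 h for 5 of the 6 ER genes, beside 10.2% of all tested genes called in that direction, by the contrast of the 4 groups in edgeR. The difference, Avicel minus starch on the log2 scale, was -2.09 for grp78, -1.95 for pdi1, -1.87 for cnx1, -1.66 for Mycth_2314691 and -1.02 for mpd1. In each of the first 4 genes ΔMttrc-1 was lower than MtWT on Avicel and higher on starch in every library, while for mpd1 the difference on starch did not pass the test. The call of mpd1 was lost on library totals (-0.987), with limma on log2(RPKM + 1) or log2(RPKM + 0.1), in a fit of the 4 groups alone (-0.998), against a 2-fold change (adjusted p = 0.881) and in 3 of 18 fits that each left out a library. The other gene, lhs1, was at -0.98 (adjusted p = 2.92e-11), under the fold threshold, and was likewise lower in ΔMttrc-1 on Avicel and higher on starch in every library.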

How the results depend on the processing

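Calls of the 6 genes depended on the scaling. On library totals in edgeR and with limma on log2(RPKM + 1) or log2(RPKM + 0.1), which have no TMM, the members called were 2 in ΔMttrc-1 over MtWT at 6 h on Avicel, 2 in ΔMttrc-1 and 2 in MtWT for Avicel over starch at 4 h, 2 in ΔMttrc-1 and 1 in MtWT for 6 h over 4 h on Avicel, and 3 in MtWT for Avicel at 6 h over starch. The other 5 counts stayed within 1.5 times. Signs turned in 7 of 66 member values under each of these 3 settings, given in the order totals, log2(RPKM + 1) and log2(RPKM + 0.1). For Avicel over starch at 4 h they were -0.42, -0.42 and -0.42 for pdi1 in ΔMttrc-1, and -0.16, -0.15 and -0.16 for lhs1 in MtWT. For 6 h over 4 h they were 0.36, 0.36 and 0.36 for cnx1 in ΔMttrc-1, and in MtWT 0.23, 0.23 and 0.24 for cnx1, 0.10, 0.10 and 0.10 for pdi1, and 0.063, 0.061 and 0.062 for Mycth_2314691. For the change of the deletion effect with time in cnx1 they were 0.12, 0.12 and 0.12. On totals the median of all tested genes moved to -0.56 in ΔMttrc-1 and -0.60 in MtWT (Avicel over starch at 4 h), 0.64 in ΔMttrc-1 and 0.28 in MtWT (6 h over 4 h), -0.29 (Avicel at 6 h over starch, MtWT), 0.36 (deletion at 6 h) and 0.34 (its change with time). The lower and higher calls over all genes were then 1942 and 387, against 722 and 733 with TMM, in ΔMttrc-1, and 2414 and 432, against 840 and 853, in MtWT for Avicel over starch at 4 h. They were 364 and 2468, against 819 and 809, in ΔMttrc-1, and 225 and 1232, against 486 and 720, in MtWT for 6 h over 4 h. They were 1538 and 768, against 902 and 1112, for Avicel at 6 h over starch in MtWT, 704 and 1544, against 1110 and 733, for the deletion at 6 h, and 679 and 1635, against 1017 and 905, for its change with time. The cause of the shift was not tested.

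DESeq2, RLE factors in edgeR and no low-count filter left all 66 member calls and signs as they were, while a test against a 2-fold change and a fit of only the groups compared each lost 1 call, mpd1 in the difference between Avicel and starch. Over all genes the test against a 2-fold change called 364 to 1371 genes a comparison, against 684 to 2014. Leaving out each library in turn gave 4 to 6 members for that difference and no other change of a count, with 6 of 1188 member calls changed. Same-numbered libraries of different groups did not deviate together (r = -0.19 to 0.07 over 27 pairs), so the numbers do not pair them, and a replicate block gave the same 4, 4, 0, 4, 0, 0, 0, 6, 0, 5 and 0 members called.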
